A study of Mus musculus with 12 samples.

Results

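The transcripts of 9 subunits of Polycomb repressive complex 1 (PRC1) were followed through cardiac precursors (CPs) in which a subunit of the partner complex PRC2 could be degraded. The 9 genes, Phc1, Phc2, Bmi1, Pcgf2, Cbx2, Cbx7, Cbx8, Ring1 and Rnf2, were taken by gene symbol from a deposited table of 35856 rows, and all 9 were found in all 12 libraries. Each had at least 1 TPM (a read count divided by transcript length and scaled so that every library has 1 common total) in at least 2 libraries, the level at which a gene was tested, as had 15663 genes in all. The genes were taken by symbol, with no measured value in the rule.

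The CPs, which are mesoderm-derived forerunners of heart cells, came from embryonic stem cells (ESCs) of the mouse strain C57BL/6, and their polyadenylated RNA was sequenced from stranded libraries. There were 3 lines, all carrying Tir1, the plant F-box protein through which auxin marks a protein with an auxin-inducible degron (AID) for degradation. The SUZ12-AID line has the tag on a core subunit of PRC2, and the MTF2-AID and AID-JARID2 lines have it on accessory subunits of different forms of that complex. Each line gave an auxin group, with 50 µM indole-3-acetic acid in the medium, and an untreated group, with 2 libraries in each of the 6 groups. Differentiation took 48 h in embryoid bodies, then 43 h from their reaggregation, then 32 h in a plated monolayer. The labels do not say when auxin was added or for how long, or whether a line is a clone. The design text calls the libraries of a group biological replicates without saying how separate the cultures were, and the p-values rest on the spread within these pairs. Neither an untagged line with auxin nor a second line per subunit was analysed here, so auxin itself, the line and loss of the tagged protein cannot be told apart.

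PRC1 is a ubiquitin ligase that marks histone H2A, and it keeps developmental genes silent together with PRC2, the methyltransferase that lays down the mark H3K27me3. Its catalytic core pairs RING1 or RNF2 (RING1B) with a PCGF protein. In canonical PRC1 that protein is PCGF2 (MEL18) or BMI1 (PCGF4), a CBX protein binds H3K27me3 through its chromodomain, and a PHC protein joins complexes to each other and compacts chromatin. Variant PRC1 has RYBP or YAF2 in place of CBX and can contain the other PCGF proteins. In mouse ESCs CBX7 is the main CBX protein, and CBX2 and CBX8 are known to take its place as cells differentiate.

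In GENCODE vM21 on mm10, Phc1 lies at chr6:122317731-122340561 on the minus strand and Phc2 at chr4:128654702-128752881 on the plus strand. Bmi1 lies at chr2:18677018-18686629 on the plus strand and Pcgf2 at chr11:97688823-97700497 on the minus strand. Cbx2 (chr11:119022962-119031270, plus strand) and Cbx8 (chr11:119036305-119040969, minus strand) are neighbours, and Cbx7 lies at chr15:79915807-79971119 on the minus strand. Ring1 lies at chr17:34020792-34024680 and Rnf2 at chr1:151458004-151500955, both on the minus strand. Libraries were stranded, but the strand setting of the counting is not given in the sources used here. Cbx7 shares 100 bases with Apobec3 and Rnf2 shares 158 bases with Trmt1l, both on the opposite strand, and Rnf2 shares 3029 bases with Gm36527 on its own strand, so reads there could be split or joined.

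RefSeq start sites on GRCm38.p6 gave an upstream window of 250 bases for 8 of the 9 genes, all but Cbx2. The sequences below are those of Bmi1, whose log2 level had the highest SD over the libraries, and of Cbx7 and Cbx8, which moved furthest in opposite directions in the AID-JARID2 line. Each runs 5′ to 3′ on the strand of its gene, ends at the RefSeq start or, where an annotated exon overlaps the window, at that exon, and has its CpG dinucleotides in capitals.
Bmi1: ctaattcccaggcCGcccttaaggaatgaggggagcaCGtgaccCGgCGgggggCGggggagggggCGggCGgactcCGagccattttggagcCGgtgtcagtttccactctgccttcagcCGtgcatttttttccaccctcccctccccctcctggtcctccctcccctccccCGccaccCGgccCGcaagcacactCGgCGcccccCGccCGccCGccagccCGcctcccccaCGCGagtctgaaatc
Cbx7: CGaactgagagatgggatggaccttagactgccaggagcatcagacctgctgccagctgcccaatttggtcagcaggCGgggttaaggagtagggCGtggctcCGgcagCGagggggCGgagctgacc
Cbx8: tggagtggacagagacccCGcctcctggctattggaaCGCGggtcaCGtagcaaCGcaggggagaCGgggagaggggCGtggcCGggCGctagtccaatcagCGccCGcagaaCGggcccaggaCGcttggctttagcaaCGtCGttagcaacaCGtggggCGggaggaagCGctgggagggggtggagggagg

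The Bmi1 stretch is chr2:18676768-18677017, the Cbx7 stretch chr15:79932769-79932896 and the Cbx8 stretch chr11:119040970-119041163. The Cbx7 stretch lies inside the GENCODE span of Cbx7, since its RefSeq start is downstream of the outermost GENCODE start. The full windows held 21 CpG in Bmi1, 23 in Cbx7, 22 in Cbx8 and 8 in Phc1, against a median of 6 over 32851 RefSeq windows of the same length. Among the other subunits Ring1 had 30, Rnf2 20 and Pcgf2 5, and the 3 windows of Phc2 had 1, 13 and 34. Only the Pcgf2 window and 1 of the 3 Phc2 windows lay below that median, and a relation of CpG number to the changes was not tested. The letters GGGCGG, searched on both strands with overlapping matches counted, occurred 6 times in the Bmi1 stretch and 1 time each in the Cbx7 and Cbx8 stretches, and 32.7% of all windows held them. The letters CCAAT, also searched on both strands, occurred 1 time in the Cbx7 stretch and 2 times in the Cbx8 stretch, and 33.8% of all windows held them. The octamer ATGCAAAT, which 1.6% of windows held on either strand, was in 1 of the 3 windows of Phc2 and in none of the windows of the other 7 genes.

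The values imply 10138920 to 17173072 assigned reads per library, and 18964 to 21026 genes per library were above 0. Marker lists were summed to check the labelled cell type. Markers said to rise or fall were called by the test described in the next paragraph. In SUZ12-AID it called 19.1% of all genes, 15.1% as higher, and in AID-JARID2 19.5% as higher and 17% as lower. In the AID-JARID2 line the 12 cardiac precursor markers summed to 225.5 and 186 TPM with auxin, against 2356 and 2293 TPM untreated, and 10 of the 11 that were tested fell. In the same line 10 pluripotency markers summed to 3351 and 3403 TPM with auxin, against 799.5 and 793.7 TPM untreated, of which 9 rose and Klf4 fell. The label of the AID-JARID2 auxin group thus goes against most of its cardiac markers, and "AID-JARID2 auxin cells" is used for it here. In the SUZ12-AID line the cardiac markers summed to 1848 and 1671 TPM with auxin, against 2737 and 3018 TPM untreated, and the pluripotency markers to 320.4 and 397.7 TPM, against 199.4 and 179.4 TPM. There 6 of the 11 cardiac markers tested rose and 1 fell, against the direction of their sum, and 8 of the 10 pluripotency markers rose. Of other cell types in SUZ12-AID, 6 of 6 markers of surface ectoderm and epithelium rose. So did 3 of 3 neural and 2 of 2 endoderm markers tested, and 3 of 4 of blood fell. Of the 5 endothelial markers 4 rose and 1 fell there, with sums of 119.3 and 110.8 TPM with auxin, against 91.5 and 110.1 TPM untreated. In AID-JARID2 the neural markers summed to 291.5 and 306.1 TPM with auxin, against 69.75 and 67.7 TPM untreated. Of the 5 neural markers 3 were tested, and 2 rose: Nes (mean 220.9 TPM, against 55.6 TPM) and Tubb3 (77.55 TPM, against 13.05 TPM). Only 2 of the 5 had at least 1 TPM in both libraries of either group. The endothelial markers summed to 5.07 and 5.12 TPM with auxin, against 20.5 and 22.55 TPM untreated. Of these 5 only Pecam1 was called, lower (mean 2.68 TPM, against 19.3 TPM), and the median log2 fold change was 0.11. It alone had at least 1 TPM in both libraries of either group. Of the 6 markers of surface ectoderm and epithelium 4 rose and 2 fell in that line. In the MTF2-AID line the cardiac sums were 1853 and 1841 TPM with auxin, against 1839 and 1786 TPM untreated, and the pluripotency sums were 239.7 and 231.5 TPM, against 220.3 and 234.9 TPM. The endothelial sums in MTF2-AID were 63.6 and 56.9 TPM with auxin, against 93.0 and 89.5 TPM untreated. In each of the 6 groups 11 of the 12 cardiac markers had at least 1 TPM in both libraries, and 0 of the 12 cardiac and 0 of the 10 pluripotency markers were at 0 in both. In bulk RNA, fewer cells of a type and less RNA per cell cannot be told apart, and the part of these shifts in the results on PRC1 was not tested.

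The first comparison asked how PRC1 transcripts differ between auxin and untreated cells of each line. In SUZ12-AID cells 1 of the 9 genes changed, Bmi1, which was 2.89-fold higher with auxin on the scale of TPM + 1. In MTF2-AID cells 0 of 9 passed the test. In AID-JARID2 cells 8 of 9 changed: Phc1, Cbx7 and Pcgf2 rose, Cbx2, Cbx8, Bmi1, Phc2 and Ring1 fell, and Rnf2 alone did not pass. Tests were those of limma on log2(TPM + 1) over all 15663 genes, with Benjamini-Hochberg adjusted p-values and a threshold of 0.05. By this rule 19.1% of all genes were called in SUZ12-AID, 15.1% as higher, 0.0638% in MTF2-AID, and 36.5% in AID-JARID2, 19.5% as higher and 17% as lower. In SUZ12-AID 78.8% of the calls over all genes were higher, against 61% with median-of-ratios scaling and 53.1% with quantile normalization, with which the all-gene median of the log2 fold change was -0.04. At least 2-fold were the calls of Phc1, Cbx7 and Cbx8 in AID-JARID2, 3 of 9, where 9.74% of all genes were. At an unadjusted p under 0.05, 3 of the 9 passed in SUZ12-AID, where 31% of all genes did, 1 in MTF2-AID, where 9.51% did, and 8 in AID-JARID2, where 44.5% did. The median log2 fold change of the 9 genes was 0.01 in SUZ12-AID, -0.0027 in MTF2-AID and -0.45 in AID-JARID2, against 0.06, 0.01 and 0.01 over all genes.

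**Figure D1:**
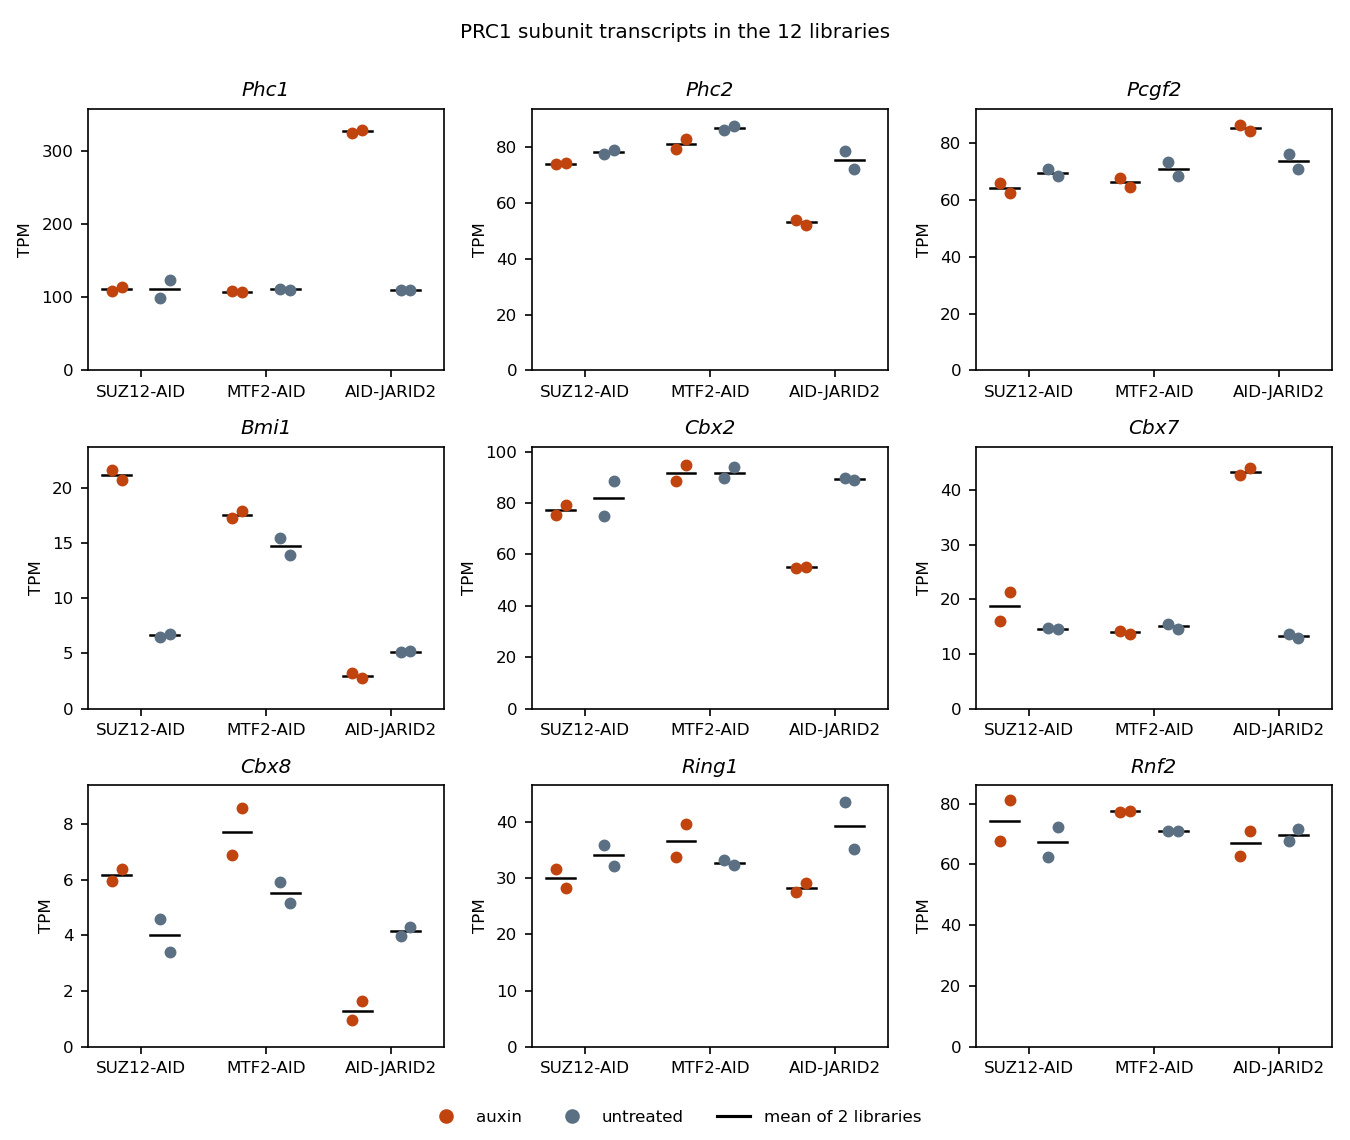
TPM (vertical axes, from 0) of the 9 PRC1 subunit genes in the 12 libraries, with a point for each library and a bar at the mean of each pair, auxin left of untreated in each line. Phc1 and Cbx7 stand highest in AID-JARID2 auxin cells, Bmi1 in SUZ12-AID auxin cells, and Rnf2 stays between 62.35 and 81.0 TPM throughout.

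**Figure D2:**
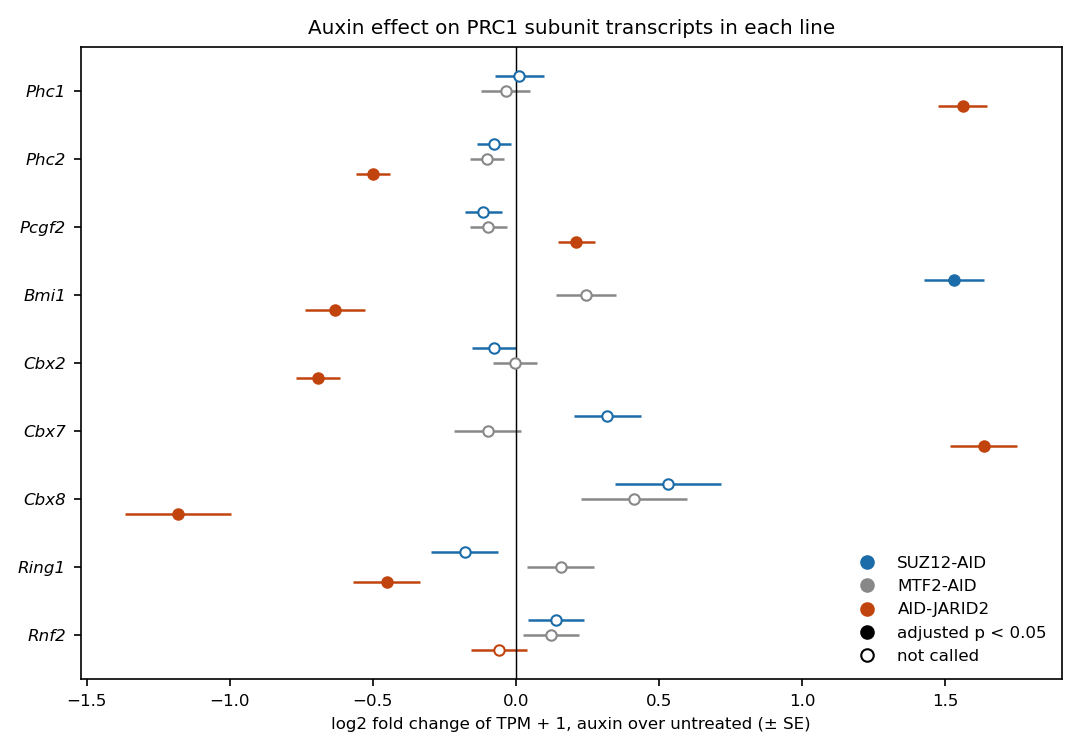
Log2 fold change of TPM + 1, auxin over untreated (horizontal axis, bars are standard errors from limma), for each PRC1 subunit gene (rows) in the 3 lines, with filled points where the adjusted p was under 0.05. All but 1 of the 9 filled points belong to AID-JARID2, and the other is Bmi1 in SUZ12-AID.

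Among the polyhomeotic genes, whose products link PRC1 complexes through their SAM domains, Phc1 was the most abundant of the 9 transcripts in every group. It was at 324.2 and 328.7 TPM in AID-JARID2 auxin cells, against 110 and 110 TPM in AID-JARID2 untreated cells (log2 fold change 1.56, SE 0.0858, adjusted p = 5.25e-07 by limma). In the other groups it was at 108 and 114.3 TPM in SUZ12-AID with auxin, against 98.5 and 123.3 TPM untreated, and at 109.1 and 106.4 TPM in MTF2-AID with auxin, against 110.9 and 110 TPM untreated. The 5 groups other than AID-JARID2 auxin therefore lay within 98.5 to 123.3 TPM. The log2 fold change was 0.01 in SUZ12-AID and -0.04 in MTF2-AID, both short of the threshold. Without SUZ12-AID untreated replicate 2, the highest of these 10 libraries, the SUZ12-AID value was 0.17 (adjusted p = 0.0404).

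Phc2, the paralog of Phc1, moved the other way. It was at 54.1 and 52.2 TPM in AID-JARID2 auxin cells, against 78.9 and 72.2 TPM in AID-JARID2 untreated cells (log2 fold change -0.50, SE 0.0594, adjusted p = 0.000115 by limma). These were the lowest levels of Phc2 in the series, since the other 4 groups held 74.1 to 87.6 TPM. Phc2 had 74.1 and 74.4 TPM in SUZ12-AID with auxin, against 77.6 and 79.0 TPM untreated, and 79.3 and 83.0 TPM in MTF2-AID with auxin, against 86.4 and 87.6 TPM untreated. Both auxin libraries lay below both untreated ones in these lines too, as in 15.3% of all genes in SUZ12-AID and 21.8% in MTF2-AID, but the log2 fold changes of -0.08 and -0.10 did not pass.

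Bmi1, which encodes the PCGF partner named for its role in mouse lymphoma, had the highest SD of log2(TPM + 1) of the 9 genes over the 12 libraries. It was at 21.6 and 20.7 TPM in SUZ12-AID auxin cells, against 6.51 and 6.79 TPM in SUZ12-AID untreated cells (log2 fold change 1.53, SE 0.105, adjusted p = 3.94e-05 by limma). It was at 3.21 and 2.76 TPM in AID-JARID2 auxin cells, against 5.13 and 5.20 TPM in AID-JARID2 untreated cells (log2 fold change -0.63, adjusted p = 0.000995). In MTF2-AID it was at 17.25 and 17.9 TPM with auxin, against 15.4 and 13.9 TPM untreated (log2 fold change 0.25, adjusted p = 0.492). Auxin and untreated libraries did not overlap in any of the lines, as held for 49.3% of all genes in SUZ12-AID, 45.9% in MTF2-AID and 72.7% in AID-JARID2. The 6 groups also kept clear of each other, in the order SUZ12-AID auxin, MTF2-AID auxin, MTF2-AID untreated, SUZ12-AID untreated, AID-JARID2 untreated and AID-JARID2 auxin. The rise in SUZ12-AID passed in all 13 alternatives, at log2 fold changes of 1.17 to 1.65, and the fall in AID-JARID2 in all 13. That fall depends on the pseudocount, with -0.77 at 0.1 TPM and -0.35 at 5 TPM. Cdkn2a, a textbook target of BMI1-containing PRC1, was at 3.91 and 2.69 TPM in AID-JARID2 auxin cells, against 2.20 and 2.09 TPM untreated (log2 fold change 0.44, adjusted p = 0.0813), and at 10.2 and 7.74 TPM in MTF2-AID with auxin, against 12.4 and 12.2 TPM untreated (-0.43, adjusted p = 0.466). In SUZ12-AID, where Bmi1 rose, Cdkn2a was at 88.6 and 81.05 TPM with auxin, against 5.59 and 7.50 TPM untreated (3.52, adjusted p = 1.32e-05).

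Pcgf2, the other PCGF gene of canonical PRC1, stayed within 62.4 to 86.5 TPM. It was at 86.5 and 84.1 TPM in AID-JARID2 auxin cells, against 76.3 and 70.8 TPM in AID-JARID2 untreated cells (log2 fold change 0.21, SE 0.0646, adjusted p = 0.027 by limma). This call held in 8 of 13 alternatives. It was lost with median-of-ratios scaling (adjusted p = 0.0888), with quantile normalization (0.0609), and without auxin replicate 1 (0.142), auxin replicate 2 (0.0839) or untreated replicate 2 (0.185). Pcgf2 had 65.9 and 62.4 TPM in SUZ12-AID with auxin, against 70.8 and 68.3 TPM untreated, and 67.7 and 64.5 TPM in MTF2-AID with auxin, against 73.2 and 68.3 TPM untreated. The log2 fold changes there were -0.11 and -0.10, and neither passed.

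The CBX genes encode the subunits that read H3K27me3, and 3 of them moved apart in AID-JARID2 cells. Cbx7 was at 42.7 and 44.0 TPM in AID-JARID2 auxin cells, against 13.7 and 12.9 TPM in AID-JARID2 untreated cells (log2 fold change 1.63, SE 0.118, adjusted p = 3.49e-06 by limma). Cbx2 was at 54.8 and 55.2 TPM with auxin, against 89.7 and 89.2 TPM untreated (log2 fold change -0.69, adjusted p = 7.58e-05). Cbx8 was at 0.953 and 1.64 TPM with auxin, from 21 and 42 reads, against 3.99 and 4.31 TPM untreated, from 81 and 78 reads (log2 fold change -1.18, SE 0.185, adjusted p = 0.000703). The groups did not overlap for any of these 3 genes, nor for 72.7% of all genes, and each call held in all 13 alternatives. As the least abundant of the 9, Cbx8 gave log2 fold changes of -1.65 with a pseudocount of 0.1 TPM and -0.54 with 5 TPM.

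In SUZ12-AID cells Cbx7 was at 16.1 and 21.3 TPM with auxin, against 14.8 and 14.5 TPM untreated (log2 fold change 0.32, adjusted p = 0.0902). Cbx8 was at 5.96 and 6.39 TPM with auxin, against 4.59 and 3.41 TPM untreated (log2 fold change 0.53, adjusted p = 0.0755). Both had all auxin values above all untreated values and missed the threshold, as 34% of all genes lay in the same order. The threshold was passed by Cbx7 without auxin replicate 1 (0.51, adjusted p = 0.0108), and by Cbx8 without untreated replicate 1 (0.70, adjusted p = 0.0435) or with a pseudocount of 5 TPM (0.32, adjusted p = 0.0482). Cbx2 had overlapping values there, 75.55 and 79.2 TPM with auxin, against 75.2 and 88.6 TPM untreated. In MTF2-AID cells Cbx7 was at 14.3 and 13.7 TPM with auxin, against 15.55 and 14.5 TPM untreated, and Cbx2 at 88.4 and 95.0 TPM, against 89.6 and 94.0 TPM. Cbx8 was at 6.88 and 8.57 TPM in MTF2-AID auxin cells, against 5.93 and 5.15 TPM in MTF2-AID untreated cells (log2 fold change 0.41, adjusted p = 0.528).

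The RING genes encode the catalytic subunits and varied little. Ring1 was at 27.5 and 29.2 TPM in AID-JARID2 auxin cells, against 43.55 and 35.1 TPM in AID-JARID2 untreated cells (log2 fold change -0.45, SE 0.117, adjusted p = 0.0126 by limma). The call was lost without auxin replicate 1 (adjusted p = 0.0793) and without untreated replicate 1, the highest of the 12 libraries (log2 fold change -0.30, adjusted p = 0.116). Ring1 had 31.7 and 28.3 TPM in SUZ12-AID with auxin, against 36.0 and 32.3 TPM untreated, and 33.8 and 39.6 TPM in MTF2-AID with auxin, against 33.2 and 32.3 TPM untreated, and passed in neither line. Rnf2 had 62.85 and 71.1 TPM in AID-JARID2 auxin cells, against 67.7 and 71.7 TPM in AID-JARID2 untreated cells, a log2 fold change of -0.06 (SE 0.0988, adjusted p = 0.698). It had 67.7 and 81.0 TPM in SUZ12-AID with auxin, against 62.35 and 72.2 TPM untreated, and 77.3 and 77.5 TPM in MTF2-AID with auxin, against 71.0 and 71.1 TPM untreated. Its log2 fold changes of 0.14 and 0.12 in these lines did not pass.

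Differences between lines in the auxin effect were tested as interaction terms in the same limma fit. Between AID-JARID2 and SUZ12-AID, 7 of the 9 effects differed, where 24% of all genes did, and between AID-JARID2 and MTF2-AID 8 of 9 did, where 24.3% did. These comparisons share the AID-JARID2 libraries. The effect on Bmi1 differed by -2.16 (SE 0.148, adjusted p = 6.93e-06) between AID-JARID2 and SUZ12-AID, the largest difference among the 9 genes, since Bmi1 moved in opposite directions in these lines. The effects on Phc1 and Cbx7 differed by 1.55 and 1.32, and that on Cbx8 by -1.71. Ring1 did not pass against SUZ12-AID (-0.27, adjusted p = 0.273) and passed against MTF2-AID (-0.61, adjusted p = 0.0232), and Rnf2 passed in neither. Between MTF2-AID and SUZ12-AID 1 of 9 effects differed, that on Bmi1 (-1.29, adjusted p = 0.000906), where 11.1% of all genes did.

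The untreated groups were compared to see how the lines differed before auxin. Untreated MTF2-AID and SUZ12-AID cells differed in 1 of the 9 genes, where 8.65% of all genes differed: Bmi1, at 15.4 and 13.9 TPM in MTF2-AID, against 6.51 and 6.79 TPM in SUZ12-AID (log2 fold change 1.03, adjusted p = 0.000561 by limma). With the libraries of that comparison alone its adjusted p was 0.0522. Untreated AID-JARID2 and MTF2-AID cells differed in 2 of the 9, where 33.4% of all genes differed. Bmi1 was at 5.13 and 5.20 TPM in AID-JARID2, against the MTF2-AID values above (log2 fold change -1.35, adjusted p = 9.78e-06), and Phc2 was at 78.9 and 72.2 TPM, against 86.4 and 87.6 TPM (log2 fold change -0.20, adjusted p = 0.0244). The Phc2 call was lost without AID-JARID2 untreated replicate 2 (adjusted p = 0.195) and without MTF2-AID untreated replicate 1 (0.083) or 2 (0.108). Untreated AID-JARID2 and SUZ12-AID cells differed in 0 of 9 by limma, where 27.6% of all genes differed, with 1 gene, Bmi1, at an unadjusted p under 0.05, as 39% of all genes were (log2 fold change -0.31, adjusted p = 0.0509). Bmi1 therefore differed more between the untreated lines than any other of the 9, and the line and its libraries cannot be told apart there.

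TPM values are per transcript length, so the make-up of each paralog group could be described from its summed TPM. Cbx7 made up 30.5% and 30.5% of the TPM of Cbx2, Cbx6, Cbx7 and Cbx8 in AID-JARID2 auxin cells, against 10.2% and 9.73% in AID-JARID2 untreated cells. Cbx2 made up 39.1% and 38.2% with auxin, against 66.55% and 67.4% untreated. The share of Cbx6 was larger with auxin too, at 29.7% and 30.2%, against 20.3% and 19.7% untreated. The sum of the 4 genes was 140.1 and 144.6 TPM with auxin, against 134.8 and 132.4 TPM untreated, so their mix shifted with little difference in their sum. In the other lines Cbx7 made up 9.35% to 15% of the sum, and Cbx2 was the most abundant of the 4 transcripts in all 12 libraries.

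Phc1 made up 84.5% and 85.0% of Phc1, Phc2 and Phc3 in AID-JARID2 auxin cells, against 56.6% and 58.1% in AID-JARID2 untreated cells, and here the sum itself was 383.8 and 386.9 TPM, against 194.5 and 189.2 TPM. Of the TPM of Bmi1 and Pcgf2 together, Bmi1 made up 24.7% and 24.9% in SUZ12-AID auxin cells, against 8.43% and 9.04% in SUZ12-AID untreated cells. Its share was 20.3% and 21.7% in MTF2-AID auxin cells, against 17.4% and 16.9% in MTF2-AID untreated cells, and 3.58% and 3.18% in AID-JARID2 auxin cells, against 6.30% and 6.85% in AID-JARID2 untreated cells. Pcgf2 thus held at least 75.1% in every library. Ring1 made up 25.9% to 39.1% of Ring1 and Rnf2 in the 12 libraries. These shares are a description, and no test of them was made.

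**Figure D3:**
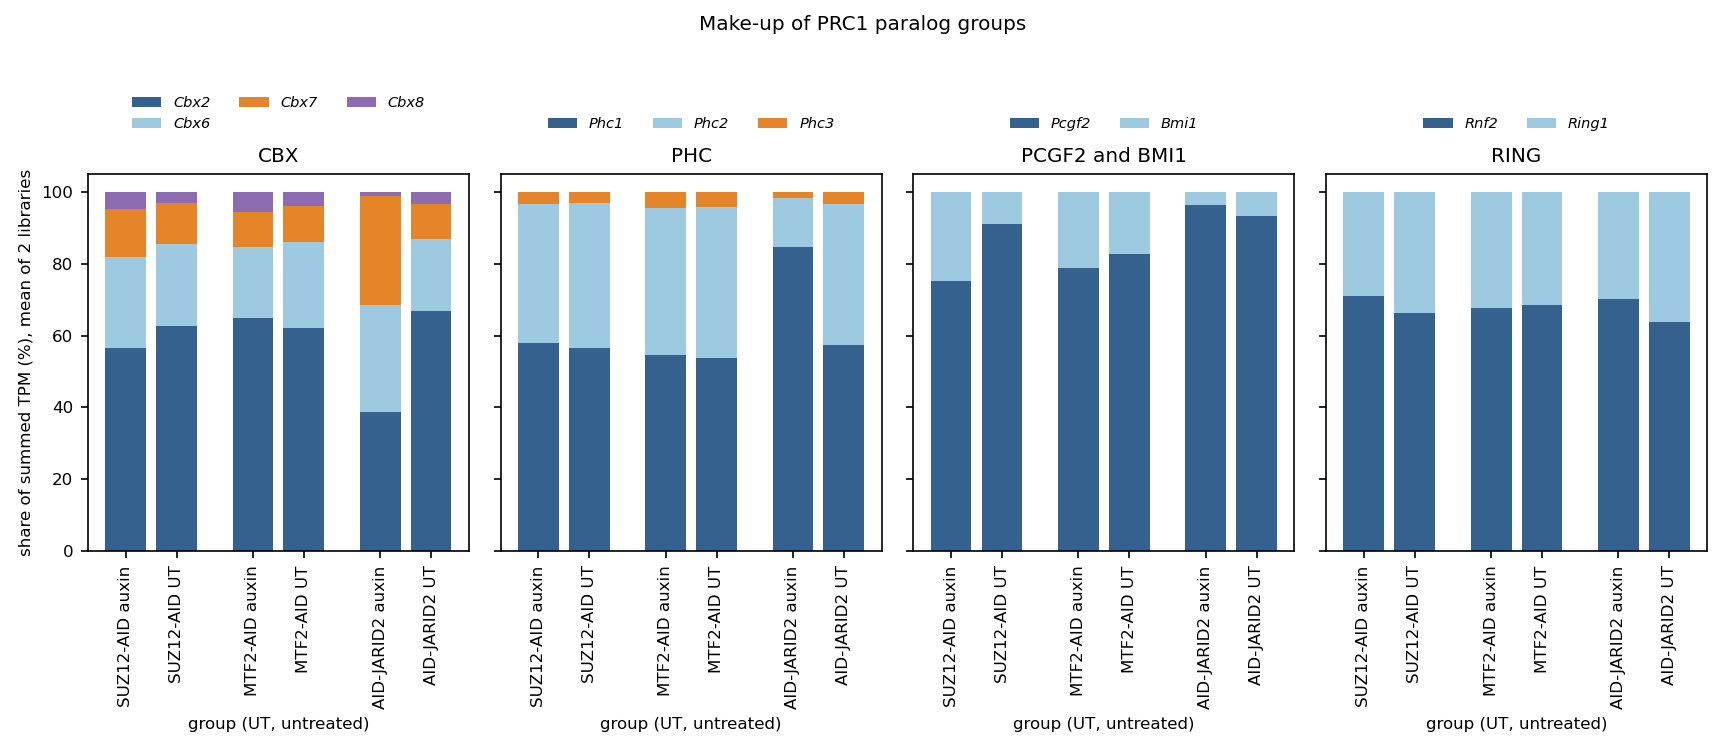
Share of the summed TPM (vertical axis, percent, mean of 2 libraries) of each gene within 4 paralog groups, with stacked bars for the 6 groups and auxin left of untreated (UT). The Cbx7 and Phc1 shares are largest in AID-JARID2 auxin cells, at 30.5% and 84.7%, and the Bmi1 share is largest in SUZ12-AID auxin cells, at 24.8%.

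Over the 12 libraries the SD of log2(TPM + 1) was 0.947 for Bmi1, a spread above that of 95.5% of the genes kept. It was 0.661 for Cbx8, 0.612 for Phc1, 0.598 for Cbx7, 0.272 for Cbx2, 0.236 for Phc2, 0.187 for Ring1, 0.142 for Pcgf2 and 0.113 for Rnf2, which was above that of 8.38% of genes. The spread of Bmi1, Cbx8, Phc1 and Cbx7 was above that of at least 84.9% of genes, and that of Cbx2 and Phc2 above that of 49.1% and 41.5%. Pearson r across the 12 libraries was 0.96 between Phc1 and Cbx7, 0.94 between Phc2 and Cbx2, -0.94 between Cbx2 and Cbx7 and -0.93 between Phc1 and Phc2. Between Bmi1 and Cbx8 it was 0.87, and between Bmi1 and Pcgf2 -0.84. These are descriptions over 6 groups of 2 libraries, in which the AID-JARID2 auxin libraries lie at an end of several of these genes.

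Among 10256 genes with a mean of at least 5 TPM, those with the pattern most like that of Bmi1 over the 12 libraries were Myh7 (r = 0.98), Gpr27 (0.97), Bicc1 (0.97) and Msrb3 (0.97). Those most like Cbx8 were Ddx50 (0.97), Bves (0.96), Rab32 (0.95) and Acat1 (0.95), and those most like Phc1 were Slc7a5 (0.99), Lasp1 (0.99), Hdac6 (0.99) and Ap1s3 (0.98). Phc1 was high in the AID-JARID2 auxin group alone, so a high r with it mostly reflects that group.

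Genes beside the members were read from the same fit. Cbx2 and Cbx8 lie 5035 bases apart on chromosome 11, and both fell in AID-JARID2 cells. On chromosome 15, 81119 bases lie between Cbx6 and Cbx7. Cbx6 was at 41.6 and 43.7 TPM in AID-JARID2 auxin cells, against 27.4 and 26.0 TPM in AID-JARID2 untreated cells (log2 fold change 0.66, adjusted p = 0.000105). It shares 10342 bases with Npcd on the same strand, so its reads could be split with that gene. Commd3, chosen after its values were seen, ends 787 bases before Bmi1 and changed in the same direction as Bmi1 in SUZ12-AID (0.78, adjusted p = 0.000397) and AID-JARID2 (-0.67, adjusted p = 0.000267). In MTF2-AID, where neither passed, Commd3 had a log2 fold change of -0.15 (adjusted p = 0.688) and Bmi1 one of 0.25.

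The other PRC1 genes were counted from lists of 4 further canonical, 21 variant and 5 H2A deubiquitinase genes, all of which were tested. In SUZ12-AID cells limma called 0 of the 4 canonical genes, with 1 at an unadjusted p under 0.05, Cbx6 (0.19, adjusted p = 0.13). Of the 21 variant genes 2 rose there, Pcgf5 (0.58, adjusted p = 0.0145) and Fbrsl1 (0.31, adjusted p = 0.0422), and 0 fell, where 19.1% of all genes were called. Both variant calls were lost with a variance weight per line (adjusted p = 0.0664 for Pcgf5 and 0.13 for Fbrsl1), with the libraries of the comparison alone (0.162 and 0.26) and without auxin replicate 2 (0.0946 and 0.287). Pcgf5 was also lost with quantile normalization (0.30, adjusted p = 0.0702), and Fbrsl1 with no filter (0.0584) and without untreated replicate 1 (0.149). Of all 15663 genes, median-of-ratios scaling gave 2155 called higher and 1376 lower, and quantile normalization 1605 higher and 1418 lower. The direction of the variant calls depended on the scaling. With median-of-ratios scaling 2 variant genes were called higher and 2 lower, and with quantile normalization 1 higher and 2 lower. The lower ones were Auts2 (-0.46 and -0.45) and Kdm2b (-0.32 and -0.34), which were called lower with the replicate block and without untreated replicate 1 too. The calls changed without untreated replicate 2 too, a fit with 1 library in that group. In MTF2-AID cells limma called 0 of the 30 genes, and 1 of the canonical genes, Cbx6 (-0.33, adjusted p = 0.15), had an unadjusted p under 0.05. In AID-JARID2 cells 2 of the 4 canonical genes changed, Cbx6 higher and Scmh1 (-0.34) lower. Of the 21 variant genes 6 rose there, Fbrsl1 (0.40), Pcgf6 (0.37), Kdm2b (0.34), L3mbtl2 (0.32), Wdr5 (0.30) and Csnk2b (0.22), and 3 fell, Bcorl1 (-0.75), Pcgf5 (-0.64) and Fbrs (-0.34). These 9 of 21 stand beside 36.5% of all genes called in AID-JARID2, as do the 2 of 4 canonical genes. With a variance weight per line most of the 21 variant genes were called, and no share over all genes is given here for that setting. The counts also changed without untreated replicate 2, a fit with 1 library in that group. The calls of Scmh1, Kdm2b and Fbrs were lost when any of the AID-JARID2 libraries was left out. By limma, that of Kdm2b was also lost with no filter (adjusted p = 0.078), and that of Csnk2b with median-of-ratios scaling (0.129). The Csnk2b call was lost too without auxin replicate 1 (log2 fold change 0.17), untreated replicate 1 (0.24) or untreated replicate 2 (0.19). The Fbrsl1 call was lost without untreated replicate 2 (0.37). The variant genes had a median log2 fold change of 0.20 in AID-JARID2 and a range of -0.75 to 0.40, narrower than the -1.18 to 1.63 of the 9 subunits. Of the deubiquitinase genes, whose products act in the removal of ubiquitin from H2A, limma called 0 of 5 in each line. In AID-JARID2 1 had an unadjusted p under 0.05, Usp16 (-0.25, adjusted p = 0.0545), which passed in 5 of 13 alternatives. Under some alternatives the count was above 0 in SUZ12-AID and AID-JARID2, and it stayed at 0 in MTF2-AID. In AID-JARID2 most of the 5 were called with a variance weight per line, with the libraries of the comparison alone and with the replicate block. No share over all genes is given here for these settings.

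Pcgf5, the PCGF subunit of a variant PRC1, had the same directions as Bmi1. It was at 7.40 and 7.96 TPM in SUZ12-AID auxin cells, against 4.06 and 5.61 TPM in SUZ12-AID untreated cells, and at 3.03 and 3.05 TPM in AID-JARID2 auxin cells, against 5.35 and 5.21 TPM in AID-JARID2 untreated cells. Bcorl1, a corepressor paired with PCGF1 complexes, was at 11.3 and 10.5 TPM in AID-JARID2 auxin cells, against 18.4 and 19.5 TPM in AID-JARID2 untreated cells. Of the 9 subunits and 30 other genes counted, Bmi1 and Pcgf5 passed as higher with auxin in SUZ12-AID and lower in AID-JARID2. Commd3 did so too. Of the 11 cardiac markers tested, 6 rose in SUZ12-AID and 10 fell in AID-JARID2, where 15.1% and 17% of all genes did. The pattern was thus not particular to Bmi1 and Pcgf5.

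**Figure D4:**
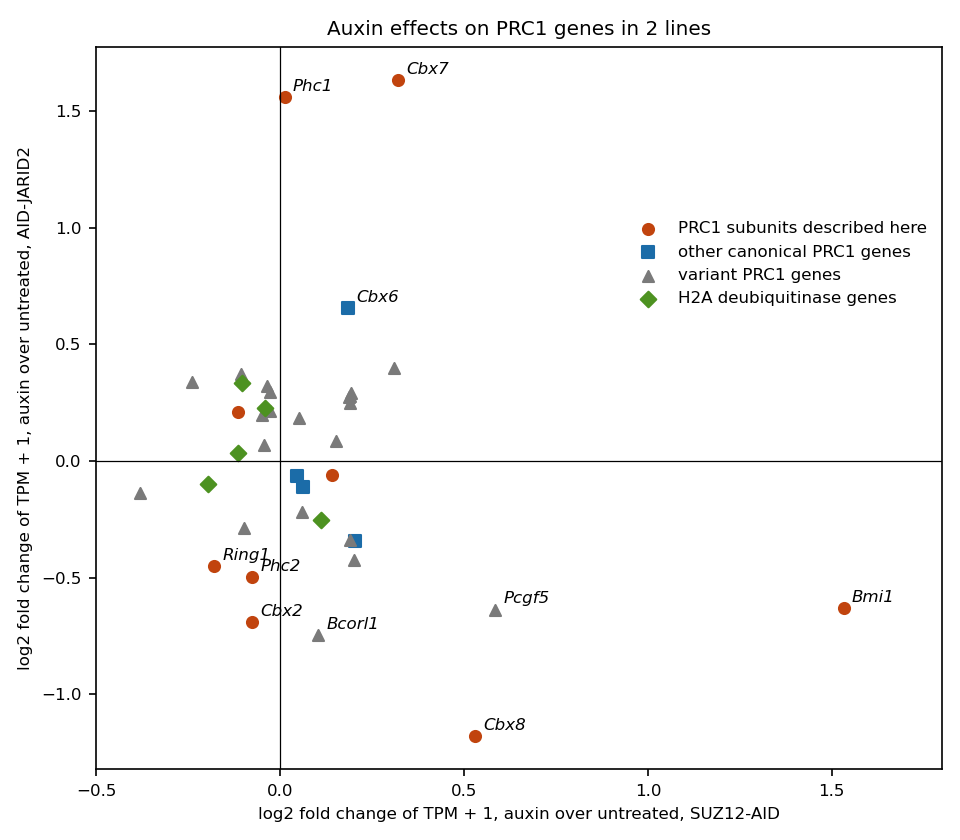
Log2 fold change of TPM + 1, auxin over untreated, in SUZ12-AID (horizontal axis) and AID-JARID2 (vertical axis) for the 9 PRC1 subunit genes (circles) and 30 other PRC1 and deubiquitinase genes (squares, triangles and diamonds), with a point per gene. Bmi1 lies at lower right, at 1.53 in SUZ12-AID and -0.63 in AID-JARID2, and Phc1 and Cbx7 lie at the top, at 1.56 and 1.63 in AID-JARID2.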

How the data were processed

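Polyadenylated RNA of 12 libraries was measured, and reads were aligned with STAR 2.6.1d to mm10 per the submitters' processing notes; which program and annotation gave the values is not given in the sources used here. Deposited by the authors were TPM values, which divide reads by transcript length and scale each library to the same total, so a large change in some genes moves the others. Columns were matched to samples by line, treatment and replicate in their names. All nonzero values were whole reads within 0.001 reads, which gave the depth and the read numbers printed.

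A gene was tested where 2 or more libraries reached 1 TPM. For log2(TPM + 1), limma 3.58.1 (R 4.3.3) fitted a mean for each of the 6 groups over all 12 libraries, with a mean-variance trend in its moderated test (6 residual and 3.9 prior degrees of freedom), with two-sided tests and Benjamini-Hochberg adjustment over all genes kept. Fold changes on this scale understate the change of low genes. The fit was tested on simulated data. The alternatives were pseudocounts of 0.1 and 5 TPM, no filter and a filter of 5 TPM, median-of-ratios and quantile scaling, a variance weight per line, the libraries of the comparison alone, a replicate block and each library left out.

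The members, gene lists and alternatives were chosen with earlier results of these data known. Named were the 9 subunits, called genes of the other PRC1 lists, Cdkn2a, and the 4 genes most like each of the 3 subunits with the highest SD. Genes outside this rule were chosen after their values were seen. These were Commd3, Usp16, Auts2, the markers Hand1, Klf4, Nes, Tubb3 and Pecam1, and Cbx6 and Kdm2b where they were not called. Positions come from GENCODE vM21 (mm10) and upstream sequences from RefSeq (GRCm38.p6). A gene chosen for the lists is not reported here and was left out of counts and sums.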

Additional observations from a re-analysis of the deposited data

Results flagged for a closer look

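The auxin effect differed between lines, by an interaction term in limma with an adjusted p under 0.05, in 16 member comparisons. Of these, 1 was between MTF2-AID and SUZ12-AID, where the effect on Bmi1 differed by -1.29 on the log2 scale. Over all genes 11.1% differed between MTF2-AID and SUZ12-AID, 24% between AID-JARID2 and SUZ12-AID and 24.3% between AID-JARID2 and MTF2-AID. The comparisons share libraries, so their calls are not independent.

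Between AID-JARID2 and SUZ12-AID the log2 difference was 1.55 for Phc1, 1.32 for Cbx7 and 0.33 for Pcgf2. It was -0.42 for Phc2, -0.61 for Cbx2, -1.71 for Cbx8 and -2.16 for Bmi1. Between AID-JARID2 and MTF2-AID it was 1.60 for Phc1, 1.73 for Cbx7 and 0.31 for Pcgf2. It was -0.40 for Phc2, -0.69 for Cbx2, -1.59 for Cbx8, -0.88 for Bmi1 and -0.61 for Ring1.

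The differences of Pcgf2 held in 11 of 17 alternatives against SUZ12-AID and 9 of 17 against MTF2-AID, and that of Ring1 in 10 of 17. The other 13 held in all 17.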

How the results depend on the processing

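Of 1161 values of the 9 genes under all alternatives, 1115 kept their direction or stayed uncalled on the same side of the threshold, 44 of which changed sign while uncalled, 32 lost the call, 13 gained it and 1 reversed. That 1 was Phc1 between untreated AID-JARID2 and SUZ12-AID cells, at 0.16 (adjusted p = 0.0373) without SUZ12-AID untreated replicate 2, against -0.16 (adjusted p = 0.0474) without replicate 1. Depth limits the least abundant genes: Cbx8 in AID-JARID2 auxin cells rests on 21 and 42 reads.

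The number of the 9 genes called in SUZ12-AID was 2 with a pseudocount of 5 TPM and 1 to 2 with a library left out. In AID-JARID2 it was 6 to 7 with a library left out. For MTF2-AID against SUZ12-AID effects it was 1 to 2 with a library left out. For untreated MTF2-AID against SUZ12-AID it was 0 with the libraries of the comparison alone and 1 to 3 with a library left out. For untreated AID-JARID2 against SUZ12-AID it was 1 with a pseudocount of 0.1 TPM, with median-of-ratios scaling and with quantile normalization, and 0 to 2 with a library left out. For untreated AID-JARID2 against MTF2-AID it was 1 to 2 with a library left out. With a library left out, the auxin minus untreated difference in share was 1.04 to 3.76 percentage points for Cbx7 and -0.624 to 3.39 for Phc1 in SUZ12-AID, and 3.13 to 4.53 for Bmi1 in MTF2-AID. The cause of these changes was not tested.

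Over all genes 2997 were called in SUZ12-AID, against 1194 with a variance weight per line, 1144 with its libraries alone and 1322 without auxin replicate 2. In MTF2-AID 10 were called, and 3 to 164 under the alternatives. In AID-JARID2 5710 were called, and 3697 without auxin replicate 2. Between MTF2-AID and SUZ12-AID effects 1740 were called, and 909 at the least, without SUZ12-AID auxin replicate 2. Between the untreated MTF2-AID and SUZ12-AID lines 1355 were called, against 131 with their libraries alone and 4092 without SUZ12-AID untreated replicate 2. Between untreated AID-JARID2 and SUZ12-AID 4319 were called, and 2232 with their libraries alone. Between untreated AID-JARID2 and MTF2-AID 5233 were called, and 3399 without AID-JARID2 untreated replicate 2.

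Deviations of same-numbered libraries correlated at 0.0958 in SUZ12-AID, -0.0388 in MTF2-AID and 0.00803 in AID-JARID2. Over all 15 pairs of groups the range was -0.0534 to 0.0958. These values cannot exclude that replicate numbers pair the samples. With the replicate block 1, 0 and 8 of the 9 genes were called in SUZ12-AID, MTF2-AID and then AID-JARID2, as without it. The calls of variant genes did change with it in SUZ12-AID and AID-JARID2.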
